A study of Homo sapiens with 2 samples.

Results

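The 48 genes described here encode proteoglycan core proteins, the enzymes that build and sulfate their heparan sulfate and chondroitin sulfate chains, and enzymes that edit or cut those chains. They were chosen as a list of symbols for this biology, with earlier results of these data known. All 48 were found among the 60880 rows of the deposited expression table. Expression was measured by RNA sequencing of polyA RNA in SUM-159, an established line of human breast cancer cells of the triple-negative kind, without hormone receptors or HER2 amplification. One library comes from PD-L1L2-SE deficient cells (title SgPD-L1L2-SE), deficient in a super-enhancer tied by the series title to PD-L1 and PD-L2, and 1 library comes from sgVector control cells. The cell line is the same in both, no treatment or time is labelled, and the sources used here do not say whether the deficient cells are 1 clone or a pool. Each group has 1 library, so nothing here could be checked against replicates or tested, and the ranges in parentheses are 95% intervals for counting error alone. In such bulk RNA, fewer cells with a transcript and less of it per cell cannot be told apart.

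Depth was similar, at 16381546 gene reads for deficient cells and 16206675 for sgVector. As a check of the labels, CD274, which encodes PD-L1, had 0.698 RPKM in deficient cells against 7.16 RPKM in sgVector cells, and PDCD1LG2, which encodes PD-L2, 1.19 against 5.32 RPKM. RPKM divides a gene's reads by its length and by the library's total gene reads. The mesenchymal markers VIM, FN1, CDH2, ZEB1 and AXL were all present at 7.14 RPKM or more in both libraries. They did not move together. VIM was 1.91-fold lower in deficient cells (1.89 to 1.94) at 390 against 746 RPKM. FN1 was 1.30-fold higher (1.28 to 1.31) at 297 against 229 RPKM, and the CDH2, ZEB1 and AXL intervals spanned no change. The luminal markers ESR1, PGR and EPCAM stood at 0.0264 RPKM or less. KRT8 and KRT18, also listed as luminal, ran from 15.5 to 28.9 RPKM, and GATA3 and FOXA1 from 0.853 to 1.38 RPKM. These 4 luminal genes were all lower in deficient cells, with a median log2 ratio of -0.36, but the FOXA1 interval spanned no change. Of 10576 protein-coding genes averaging 1 RPKM or more, 5669 were also lower. KRT18 shares 24.7% of its exon bases with other gene rows, KRT8 among them. The part of such marker differences in the results was not tested. Of the leukocyte list CD14 was present at 15.4 and 11.0 RPKM, and PTPRC, which defines leukocytes, had 0 and 4 reads. The endothelial and adipocyte markers found were at 0.498 RPKM or less.

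Proteoglycans are proteins that carry long sulfated sugar chains. Xylosyltransferases start each chain on a serine of the core protein, after which exostosins extend heparan sulfate and chondroitin synthases extend chondroitin sulfate. Sulfotransferases then place sulfate groups, and the resulting pattern determines which growth factors, chemokines and matrix proteins the chain binds. Glypicans are held at the cell surface by a lipid anchor and syndecans by a membrane-spanning segment, and both act as co-receptors for growth factors.

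Of the 48 genes, 37 averaged 1 RPKM or more over both libraries, and 11 lay below that minimum. On the log2 ratio of (RPKM + 0.1), deficient over sgVector, 4 of the 37 reached 2-fold upward and 0 reached it downward. Among 10576 protein-coding genes past the same minimum, 2.1% reached 2-fold upward and 2.07% downward. The whole counting interval lay past 2-fold upward for the same 4, against 1.31% of protein-coding genes, and downward for 0, against 1.04%. The 4 genes averaged 1 RPKM only through the deficient library, since in sgVector cells they stood at 0.124 RPKM (GPC6), 0.106 RPKM (CHST1), 0.322 RPKM (SULF1) and 0.866 RPKM (CHST15). The same minimum left out SULF2 and GPC2, which were past 2-fold downward. With no minimum the counts over all 48 genes were 4 upward and 2 downward, against 2.49% and 3.21% of protein-coding genes, so the count of 4 against 0 supports no direction for the set. The 4 genes were GPC6, a glypican, CHST15, a chondroitin sulfotransferase, CHST1, a sulfotransferase of keratan sulfate, and SULF1, which removes sulfate from heparan sulfate. All 4 were among the 11 listed genes with a mean between 1 and 5 RPKM, and none of the 26 listed genes at 5 RPKM or more reached 2-fold. Among protein-coding genes in that lower range 3.45% reached 2-fold upward and 3.65% downward. At 5 RPKM or more 1.31% of protein-coding genes reached it upward and 1.14% downward, so 0 of the 26 is near these shares.

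The log2 ratio was above 0 for 28 of the 37 genes, against 46.4% of the protein-coding genes, and the median was 0.24 against -0.03. The counting interval of the read ratio lay wholly above no change for 24 genes, against 30% of protein-coding genes, and wholly below it for 8, against 35.4%. Of the 25 enzyme genes past the minimum 20 were above 0, with a median of 0.32, and of the 12 core protein genes 8 were above 0, with a median of 0.18. The difference between enzymes and cores was not tested. The 4 genes past 2-fold are among the 28 and averaged 1 RPKM only through the deficient library. The same minimum left out 11 genes, among them SULF2 and GPC2, which were past 2-fold downward. With no minimum the median over all 48 genes was 0.18, against 0 for protein-coding genes. The list was chosen with earlier results of these data known, so these shares support no direction for the set.

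**Figure D1:**
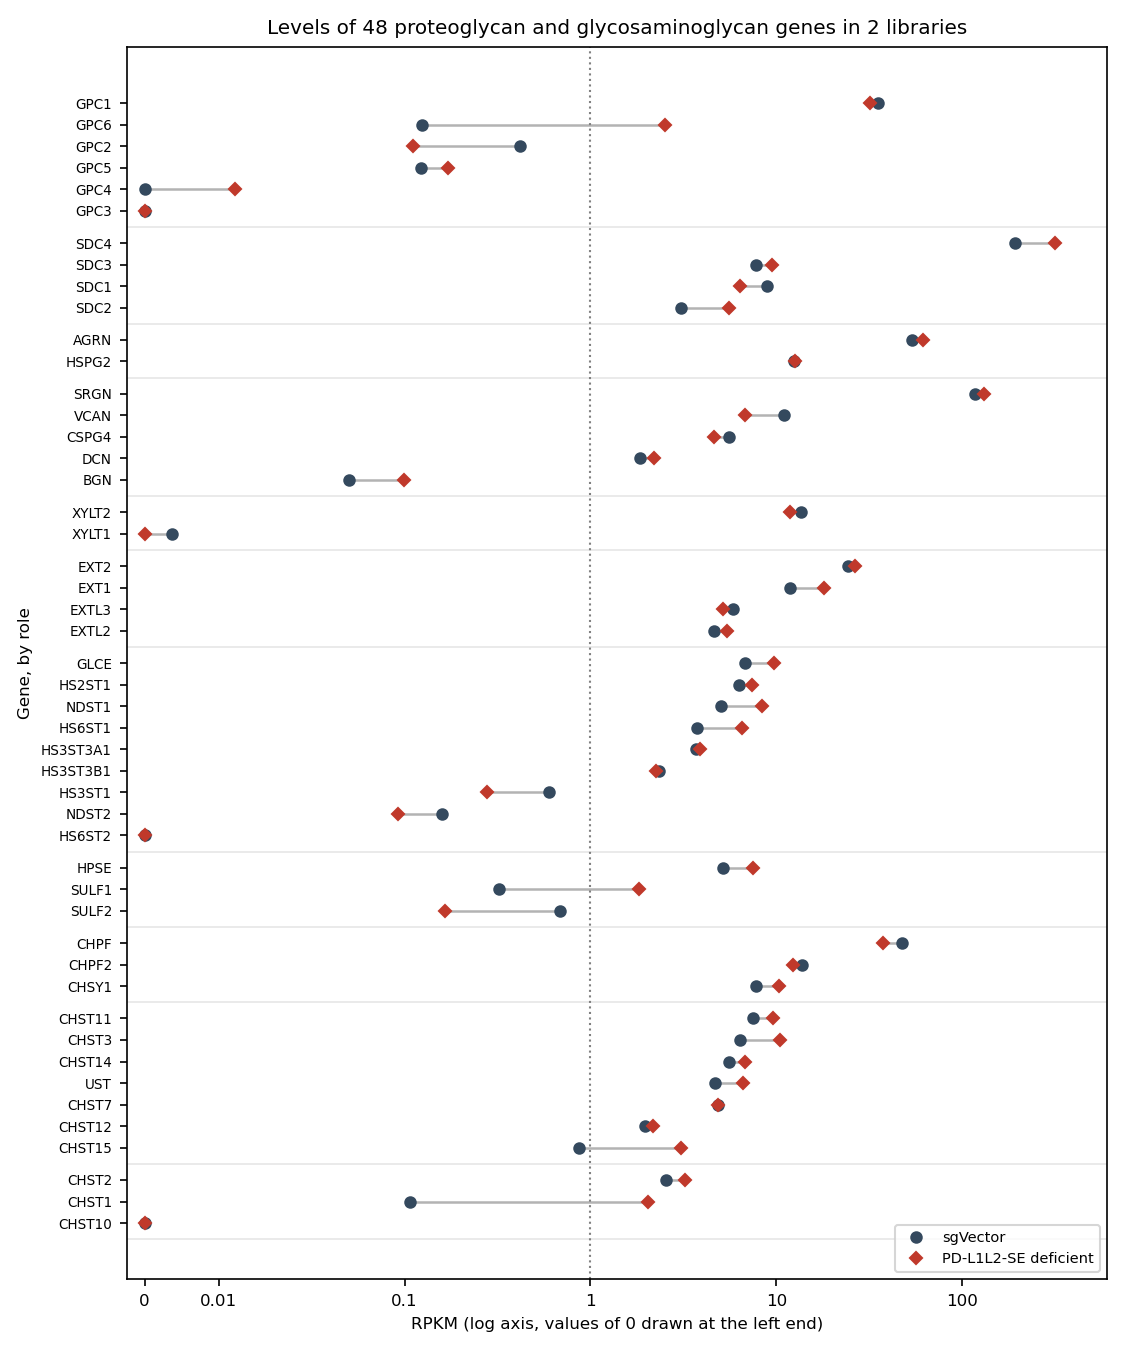
Level of each of the 48 genes in RPKM on a log axis, grouped by role, with a circle for the sgVector library and a diamond for the PD-L1L2-SE deficient library; the dotted line marks 1 RPKM. GPC6 and CHST1 are joined by the longest lines among genes that reach 1 RPKM in either library, and SDC4 lies farthest right at 314 and 192 RPKM.

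**Figure D2:**
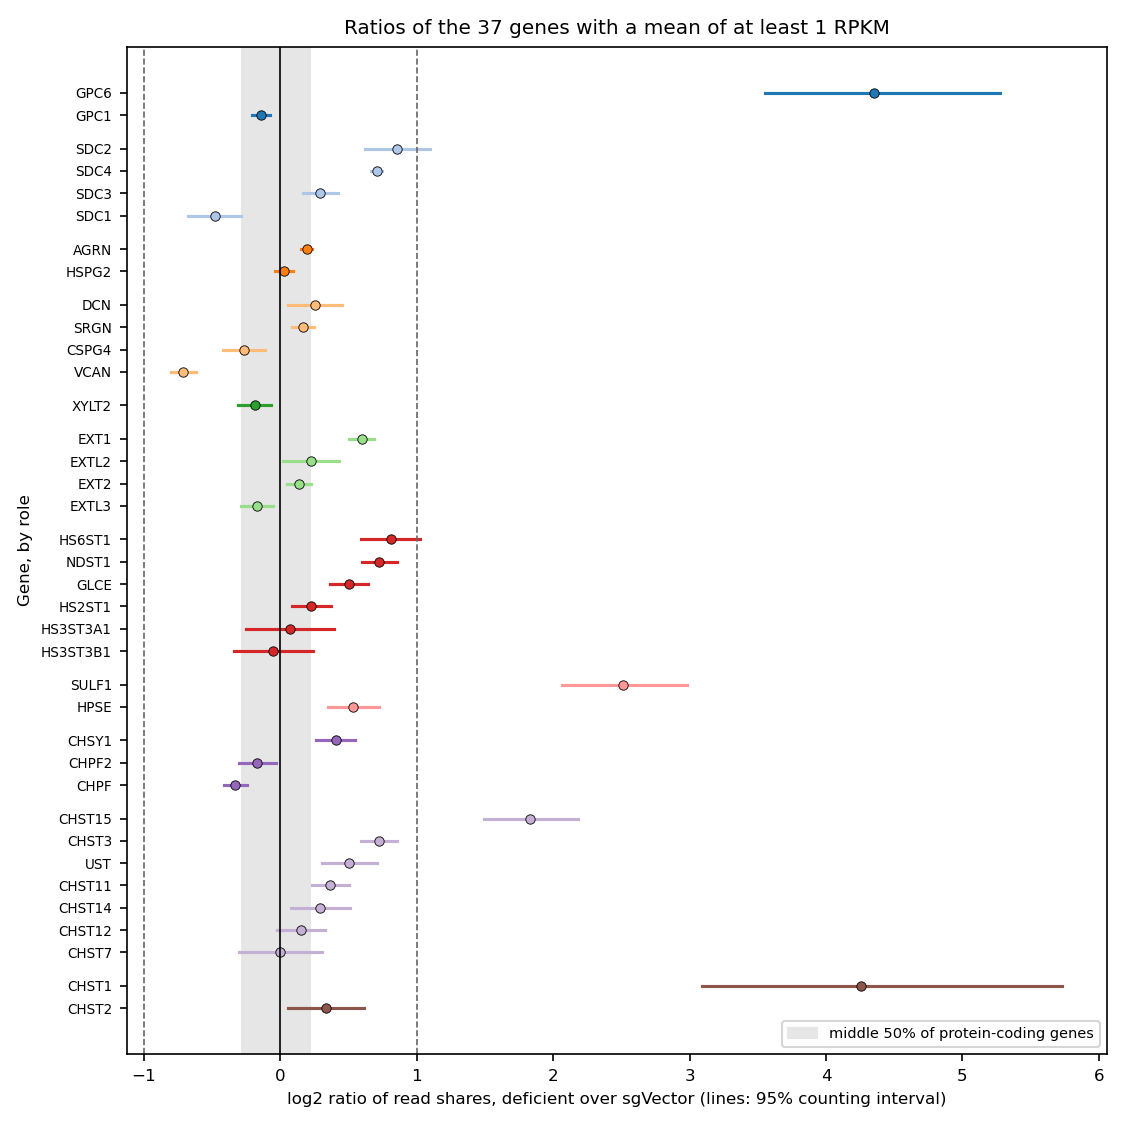
Log2 ratio of read shares, deficient over sgVector, with its 95% counting interval for the 37 genes averaging 1 RPKM or more, coloured by role; the grey band holds the middle 50% of protein-coding genes. GPC6, CHST1, SULF1 and CHST15 lie beyond the dashed line at 2-fold, and no gene lies beyond the one at the left.

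The promoters of 4 genes are shown as reference sequence, GPC6 and CHST15 because they were among the 4 at least 2-fold higher, NDST1 because it had the only repeated AP-1 site match among the listed genes, and SDC4 because it was the most abundant of them. Each is 250 bases before to 50 after the gene's start in RefSeq (GRCh38.p14), at chr13:93226557-93226856 on the plus strand, chr10:124093549-124093848 on the minus strand, chr5:150497529-150497828 on the plus strand and chr20:45348375-45348674 on the minus strand, printed 5′ to 3′ along the gene. Capitals mark matches on either strand to any of 6 motifs: the GC box GGGCGG, the AP-1 site TGANTCA, the TATA box TATAAA, the E-box CACGTG, the CCAAT box, and a pair of GAAA copies with any 2 bases between them.
GPC6: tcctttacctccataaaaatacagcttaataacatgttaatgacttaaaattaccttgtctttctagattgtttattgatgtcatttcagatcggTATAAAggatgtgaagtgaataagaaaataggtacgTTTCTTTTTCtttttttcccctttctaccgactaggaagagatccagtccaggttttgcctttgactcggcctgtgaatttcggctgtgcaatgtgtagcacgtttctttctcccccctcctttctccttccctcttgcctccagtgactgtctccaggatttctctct
CHST15: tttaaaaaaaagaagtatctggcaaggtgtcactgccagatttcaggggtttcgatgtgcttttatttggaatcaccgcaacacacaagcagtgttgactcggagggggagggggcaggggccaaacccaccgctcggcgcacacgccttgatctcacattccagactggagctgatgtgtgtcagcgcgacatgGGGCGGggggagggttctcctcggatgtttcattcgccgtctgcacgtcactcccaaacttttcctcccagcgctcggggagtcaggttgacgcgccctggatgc
NDST1: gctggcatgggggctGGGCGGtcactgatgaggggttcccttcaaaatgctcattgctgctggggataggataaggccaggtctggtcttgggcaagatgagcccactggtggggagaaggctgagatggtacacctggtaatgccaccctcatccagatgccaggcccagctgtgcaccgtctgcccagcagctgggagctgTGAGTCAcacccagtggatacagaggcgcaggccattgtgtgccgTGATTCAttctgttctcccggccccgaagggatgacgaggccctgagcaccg
SDC4: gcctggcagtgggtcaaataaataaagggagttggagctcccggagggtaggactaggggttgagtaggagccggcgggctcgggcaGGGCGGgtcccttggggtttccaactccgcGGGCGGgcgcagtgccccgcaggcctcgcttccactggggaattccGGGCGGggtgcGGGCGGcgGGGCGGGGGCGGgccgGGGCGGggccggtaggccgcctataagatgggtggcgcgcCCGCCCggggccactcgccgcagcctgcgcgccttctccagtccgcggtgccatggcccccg

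RefSeq windows of this kind were at hand for 39 of the 48 genes. The GC box GGGCGG was in 33 of these 39 windows, against 45% of all 35116 promoter windows of the same length. The 39 windows also held more CpG dinucleotides, at a median of 29 against 14, and windows of like CpG content were not compared. The GPC6 window had no GC box, 1 TATA box match and 1 match to the GAAA pair, a sequence of the kind that interferon regulatory factors bind, and was the only window of the 39 with that match, against 3.57% of all windows. The CHST15 window had 1 GC box and no other match. NDST1 had 2 AP-1 site matches and SDC4 had 8 GC boxes. At least 1 AP-1 site match was in 2 of the 39 windows, against 7.71% of all windows. No match overlapped one of another motif in these 4 windows. The GPC6 window was also poor in G and C, at 40.0%, with 6 CpG dinucleotides against a median of 29 over the 39 windows and 14 over all windows. These matches describe the sequence and do not show binding.

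Glypicans were dominated by GPC1 in both libraries. GPC1 had 31.7 RPKM in deficient cells and 35.0 RPKM in sgVector cells, for a log2 ratio of -0.14 that became 0.08 with a correction for GC content and length. GPC6, a glypican that binds Wnt and other growth factors, had 2.53 RPKM from 268 reads in deficient cells and 0.124 RPKM from 13 reads in sgVector cells. It was 20.4-fold higher in deficient cells (11.7 to 38.8), and its share of the summed glypican RPKM went from 0.347% to 7.32%. The sum itself was about the same, at 34.6 RPKM against 35.7. GPC2, a glypican of the developing nervous system, had 0.112 RPKM from 7 reads against 0.419 RPKM from 26 reads and lay below the minimum, with a 3.75-fold lower read share whose interval ran from 1.59 to 10.2.

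The remaining glypicans were near or at 0. GPC5, which neighbours GPC6 on chromosome 13, had 10 reads against 7, a ratio with an interval of 0.486 to 4.37. GPC3 and GPC4, which neighbour each other on the X chromosome, had 0 reads in both libraries and 1 read against 0. A count of 0 allows up to 3 reads, which for GPC3 is 0.0676 RPKM in deficient cells and 0.0683 RPKM in sgVector cells. Of the GPC6 exon bases 7.36% are shared with another gene row.

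Syndecans were led by SDC4, which supports focal adhesions together with integrins. SDC4 had 314 RPKM from 13428 reads in deficient cells and 192 RPKM from 8134 reads in sgVector cells, the highest level of all 48 genes in both. It was 1.63-fold higher (1.59 to 1.68) and made up 84.9% of the summed RPKM of glypicans and syndecans in deficient cells against 77.6% in sgVector cells. SDC2, a syndecan of mesenchymal cells, was 1.81-fold higher (1.54 to 2.14), at 5.54 against 3.06 RPKM. SDC3 was 1.22-fold higher (1.12 to 1.34), at 9.53 against 7.78 RPKM. SDC1, the syndecan typical of epithelial cells, was the only syndecan in the other direction, 1.39-fold lower (1.22 to 1.6) at 6.37 against 8.87 RPKM. The SDC1 log2 ratio of -0.47 became -0.25 with the GC and length correction. The summed syndecan level was 335 RPKM in deficient cells and 212 RPKM in sgVector cells, most of it SDC4.

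Among secreted heparan sulfate cores, AGRN, which encodes agrin, had 61.1 RPKM against 53.4 and HSPG2, which encodes the basement membrane protein perlecan, 12.6 RPKM against 12.4. The HSPG2 interval spanned no change, and 11.7% of its exon bases are shared with LDLRAD2. Chondroitin and dermatan sulfate cores differed in both directions. VCAN, which encodes the large matrix proteoglycan versican, had 6.75 RPKM from 1641 reads in deficient cells and 11.0 RPKM from 2655 reads in sgVector cells, 1.64-fold lower (1.54 to 1.74) and the lowest ratio of the 37 genes. CSPG4, the NG2 proteoglycan, was 1.2-fold lower (1.08 to 1.34), a log2 ratio of -0.26 that became -0.09 with the GC and length correction. DCN, which encodes decorin, was 1.19-fold higher (1.04 to 1.37) at 2.20 against 1.85 RPKM, a log2 ratio of 0.24 that became 0.01 with the same correction. SRGN, which encodes serglycin, an intracellular and secreted proteoglycan, was the second most abundant of the 48 genes, at 131 against 117 RPKM. BGN, which encodes biglycan, had 4 reads against 2.

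Chain initiation rested on XYLT2, at 11.9 RPKM in deficient cells and 13.5 RPKM in sgVector cells, for a log2 ratio of -0.19 that became 0.01 with the GC and length correction. XYLT1, the other xylosyltransferase, had 0 reads and 1 read. EXT1 and EXT2 form the complex that polymerises heparan sulfate. EXT1 had 17.9 RPKM against 11.8 and was 1.51-fold higher (1.42 to 1.61), while EXT2 had 26.5 against 24.1 RPKM and was 1.10-fold higher (1.04 to 1.17). These intervals do not overlap, and the ratio of the partners to each other thus differed between the libraries by more than counting error. Differences beyond counting error were common, since the interval lay wholly above no change for 30% of protein-coding genes and wholly below it for 35.4%. EXTL2 was 1.17-fold higher (1.01 to 1.35), and EXTL3, which adds the first sugar specific to heparan sulfate, 1.13-fold lower (1.04 to 1.22).

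Heparan sulfate is modified in steps after polymerisation. Of the 9 genes listed for these steps 6 were past the minimum, 5 of them above 0, against 46.4% of protein-coding genes, with a median of 0.36. The interval lay wholly above no change for 4 of the 6, against 30% of protein-coding genes. The minimum left out HS3ST1, 2.16-fold lower (1.44 to 3.28), NDST2 and HS6ST2. The list was chosen with earlier results of these data known, so these counts support no direction for this step. NDST1, which removes acetyl groups and adds the first sulfates, had 8.33 RPKM from 1301 reads in deficient cells and 5.04 RPKM from 778 reads in sgVector cells, 1.65-fold higher (1.51 to 1.81). GLCE, the epimerase that follows it, was 1.42-fold higher (1.29 to 1.56), at 9.65 against 6.79 RPKM. HS2ST1, which sulfates the epimerised sugar, was 1.17-fold higher (1.06 to 1.29), a log2 ratio of 0.22 that became 0.04 with the GC and length correction. HS6ST1, which adds sulfate at the 6-O position, had 6.53 RPKM from 501 reads against 3.73 RPKM from 283 reads and was 1.75-fold higher (1.51 to 2.03). In its family HS6ST2 had 0 reads in both libraries, and HS6ST3, a gene outside the 48, was 1.84-fold higher (1.6 to 2.12) at 4.49 against 2.44 RPKM. HS6ST3 lies on chromosome 13, as GPC6 does, where the median log2 ratio of the other protein-coding genes was 0.46.

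The 3-O-sulfotransferases add a late and rare sulfate. HS3ST3A1 had 3.88 RPKM against 3.69, and its neighbour on chromosome 17, HS3ST3B1, 2.25 against 2.33 RPKM, both with intervals that spanned no change, and the sign of HS3ST3B1 turned with centring and with the GC and length correction. The 2 genes are close paralogs, so the split of reads between them is uncertain. HS3ST1 lay below the minimum at 0.277 RPKM (37 reads) against 0.597 RPKM (79 reads), 2.16-fold lower (1.44 to 3.28). NDST2 had 7 reads against 12, but 82.9% of its exon bases are shared with another gene row, so its level cannot be read from this table.

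The extracellular 6-O-endosulfatases exchanged rank between the libraries. SULF1, which trims 6-O-sulfates from finished chains and so alters growth factor binding, had 1.83 RPKM from 282 reads in deficient cells and 0.322 RPKM from 49 reads in sgVector cells. It was 5.69-fold higher (4.19 to 7.88). SULF2, its paralog with the same activity, had 0.165 RPKM from 18 reads against 0.686 RPKM from 74 reads, 4.16-fold lower (2.46 to 7.39). SULF2 lay below the minimum of 1 RPKM and so outside the counts above. SULF1 made up 31.9% of the summed RPKM of the 2 genes in sgVector cells and 91.7% in deficient cells. HPSE, which encodes heparanase, the enzyme that cuts heparan sulfate chains, was 1.45-fold higher (1.27 to 1.65), at 7.5 against 5.18 RPKM.

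**Figure D3:**
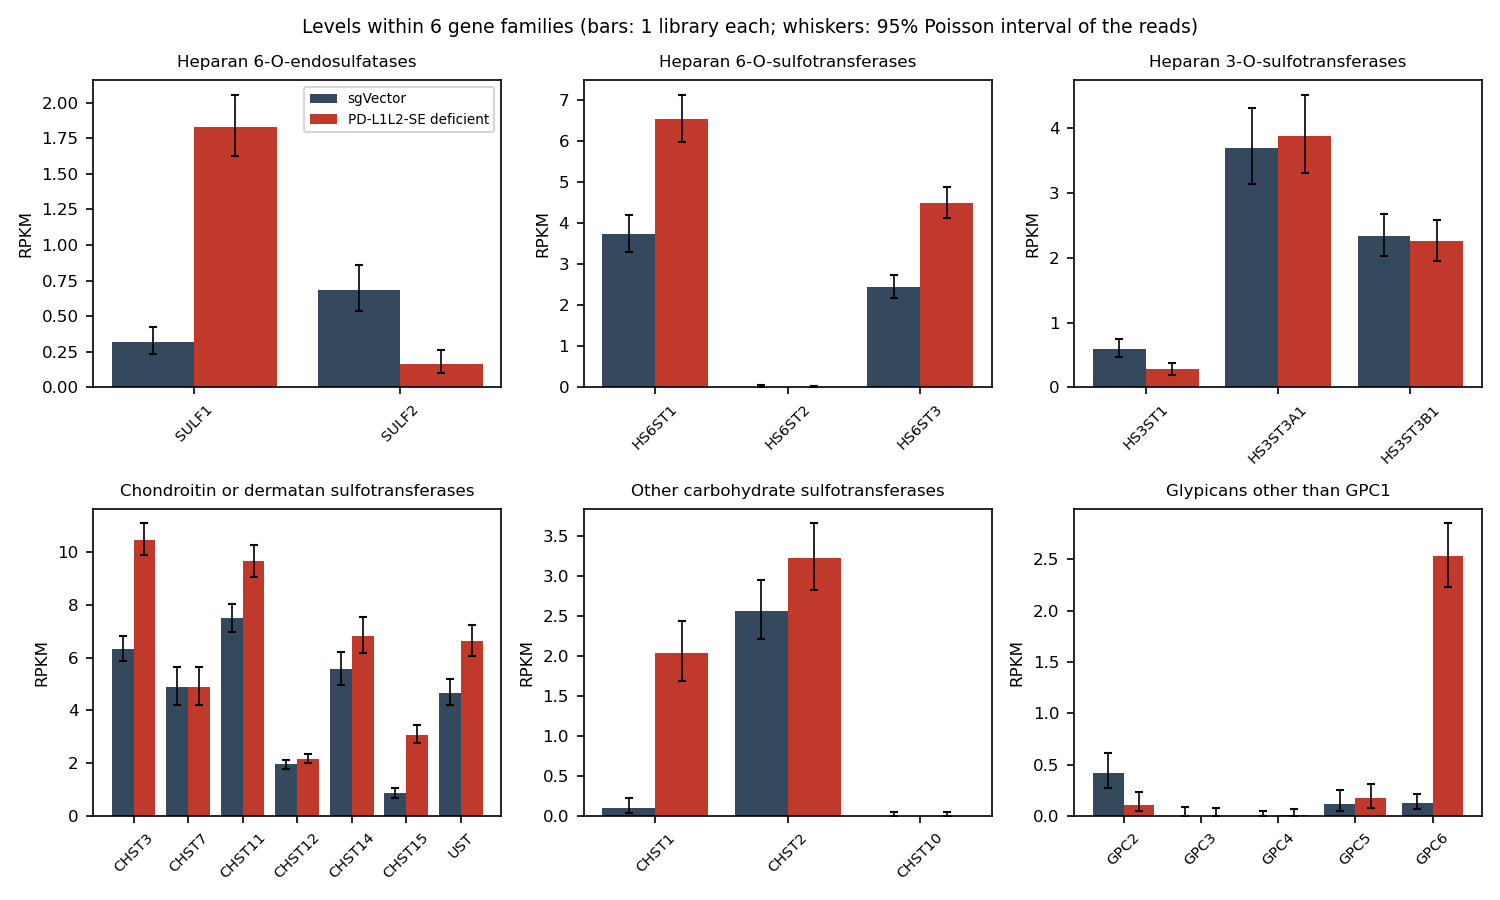
Levels in RPKM within 6 gene families, with a bar per library and whiskers for the 95% Poisson interval of the reads, which covers counting error only. SULF1 is above SULF2 in deficient cells and below it in sgVector cells, and GPC6 is the tallest bar among glypicans other than GPC1 at 2.53 RPKM.

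Chondroitin chain synthesis genes were mixed. CHSY1, a chondroitin synthase, was 1.33-fold higher (1.2 to 1.46), at 10.3 against 7.79 RPKM. CHPF, a polymerising factor that works with it, was the more abundant at 37.5 against 47.1 RPKM and was 1.26-fold lower (1.19 to 1.33), a log2 ratio of -0.33 that became -0.02 with the GC and length correction. CHPF2 had 12.3 RPKM against 13.8, for a log2 ratio of -0.17 that became 0.05 with the GC and length correction.

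The chondroitin and dermatan sulfotransferases had 7 of 7 genes past the minimum. All 7 had a log2 ratio above 0, against 46.4% of protein-coding genes, although CHST7 stood at 0.00 and turned to -0.02 when mitochondrial genes were removed from the totals. CHST15, which adds a sulfate at position 6 to units already sulfated at position 4, had 3.08 RPKM from 331 reads in deficient cells and 0.866 RPKM from 92 reads in sgVector cells, 3.56-fold higher (2.82 to 4.53). CHST3, the main chondroitin 6-O-sulfotransferase, was 1.65-fold higher (1.5 to 1.81), at 10.5 against 6.34 RPKM, which placed it above CHST11 in deficient cells and below it in sgVector cells. CHST11, a 4-O-sulfotransferase, was 1.29-fold higher (1.17 to 1.42), at 9.65 against 7.48 RPKM. UST, which sulfates uronic acid at the 2-O position, was 1.42-fold higher (1.23 to 1.63), and CHST14, which acts on dermatan sulfate, 1.23-fold higher (1.06 to 1.42). CHST12 and CHST7 had intervals that spanned no change. The summed level of the 7 genes was 43.7 RPKM in deficient cells and 31.7 RPKM in sgVector cells.

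CHST1, CHST2 and CHST10 sulfate other sugars. CHST1, which adds sulfate to galactose in keratan sulfate, had 2.04 RPKM from 116 reads in deficient cells and 0.106 RPKM from 6 reads in sgVector cells, 19.1-fold higher (8.53 to 53.2). CHST2, which makes sulfated ligands of L-selectin, was 1.26-fold higher (1.04 to 1.53) at 3.22 against 2.56 RPKM. CHST10, which makes the HNK-1 epitope of neural cells, had 0 reads in both libraries. The CHST1 ratio rests on 6 control reads, and its interval is the widest of the 37.

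The 4 genes at least 2-fold higher lie on different chromosomes, and none of their expressed neighbours was higher by as much. The 4 were picked for high ratios and 2.1% of protein-coding genes past the minimum reached 2-fold upward, so lower neighbours were likely beforehand. In hg19 coordinates GPC6 (ENSG00000183098) lies on chromosome 13 from 93879095 to 95059655, CHST1 (ENSG00000175264) on chromosome 11 from 45670427 to 45687172, SULF1 (ENSG00000137573) on chromosome 8 from 70378859 to 70573150 and CHST15 (ENSG00000182022) on chromosome 10 from 125767182 to 125853123. Within 1 Mb of either end of GPC6 the protein-coding genes past the minimum were TGDS, GPR180 and ABCC4, with log2 ratios of 0.23, 0.21 and 0.41 against 3.55 for GPC6. Around CHST1, 12 genes had a median of 0.15 and a highest value of 0.69 against 3.37. Around SULF1, 3 genes had a highest value of 0.38 against 2.20, and around CHST15, 10 genes had a median of 0.25 and a highest value of 0.53 against 1.72. Only TSPAN18 near CHST1, at -1.16, reached 2-fold among these neighbours, against 2.07% of protein-coding genes downward. Of the genes with smaller differences, EXT1 at 0.59 and SDC2 at 0.84 lie on chromosome 8 among neighbours with medians of 0.49 and 0.38. SDC4 at 0.71, CHST3 at 0.71 and CHST11 at 0.36 lie among neighbours with medians of 0.03, -0.19 and -0.31.

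**Figure D4:**
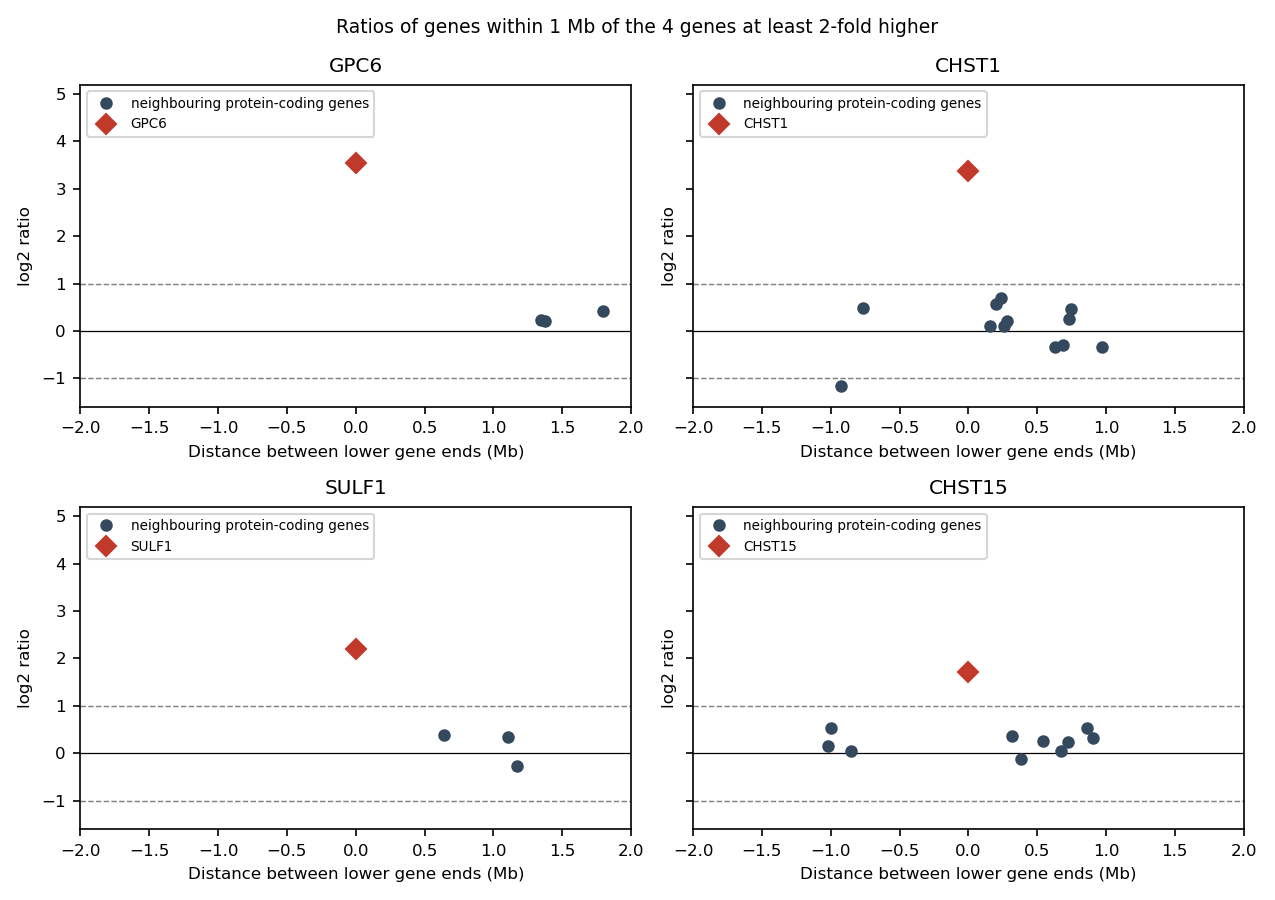
Log2 ratio of RPKM + 0.1, deficient over sgVector, for protein-coding genes within 1 Mb of GPC6, CHST1, SULF1 and CHST15, by the distance in Mb between the lower ends of the genes. Each diamond lies above every circle of its panel, which was likely beforehand because these genes were picked for high ratios. TSPAN18 is the 1 circle below the dashed line at -1.

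The rest of the pathway was taken from 9 lists of 87 genes outside the 48, of which 48 were past the minimum. Of these, 1 reached 2-fold upward and 2 downward, against 2.1% and 2.07% of protein-coding genes, and 23 were above 0, against 46.4%, with a median of -0.02. These shares are near those of all protein-coding genes. The lists that supply or dispose of the chains stayed close to 0. The 5 linkage region enzymes had a median of -0.04 and ran from -0.31 for B3GALT6 to 0.29 for FAM20B. The 14 lysosomal degradation genes had a median of -0.04 and ran from -0.30 for IDUA to 0.32 for IDS. No direction is given for either list, since B3GAT3 in the first and genes such as SGSH and NAGLU in the second changed sign with the scaling and IDUA with the GC and length correction. The 4 chondroitin enzymes outside the 48 ran from -0.05 for CHSY3, whose sign changed with centring, to 0.20 for CSGALNACT2.

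Among the 11 sulfate donor and nucleotide sugar genes, with a median of 0.08, SLC26A2 had the highest ratio. SLC26A2 brings sulfate into the cell, and it had 4.94 RPKM from 696 reads in deficient cells and 2.54 RPKM from 354 reads in sgVector cells, 1.95-fold higher (1.71 to 2.22). PAPSS1, which makes the sulfate donor, stood at a log2 ratio of 0.08 with an interval that spanned no change. The keratan sulfate list had B4GALT1 at 0.43 and B4GALT4 at -0.51.

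The 3 pathway genes past 2-fold act outside the cell or at its surface. NOTUM, a secreted carboxylesterase that removes the lipid from Wnt proteins and was first described as releasing glypicans, had 1.96 RPKM from 97 reads in deficient cells and 9.03 RPKM from 442 reads in sgVector cells, 4.61-fold lower (3.69 to 5.80). THBD, which encodes thrombomodulin, a receptor that can carry chondroitin sulfate, was 3.45-fold lower (2.94 to 4.06), at 2.94 against 10.2 RPKM. CEMIP, which takes part in the breakdown of hyaluronan, was 3.17-fold higher (2.82 to 3.57), at 9.48 against 2.99 RPKM. CD44, the main hyaluronan receptor, had 68.8 RPKM against 82.8, a log2 ratio of -0.27, and HYAL2 had the lowest ratio among hyaluronan genes past the minimum at -0.64. HAS3, a hyaluronan synthase below the minimum, had 32 reads against 77, 2.43-fold lower (1.59 to 3.80). Of the other proteoglycan cores, TGFBR3, SPOCK1 and COL18A1 stood at 0.65, 0.58 and 0.58, and NRP1 at -0.58. Of the COL18A1 exon bases 16.4% are shared with SLC19A1.

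**Figure D5:**
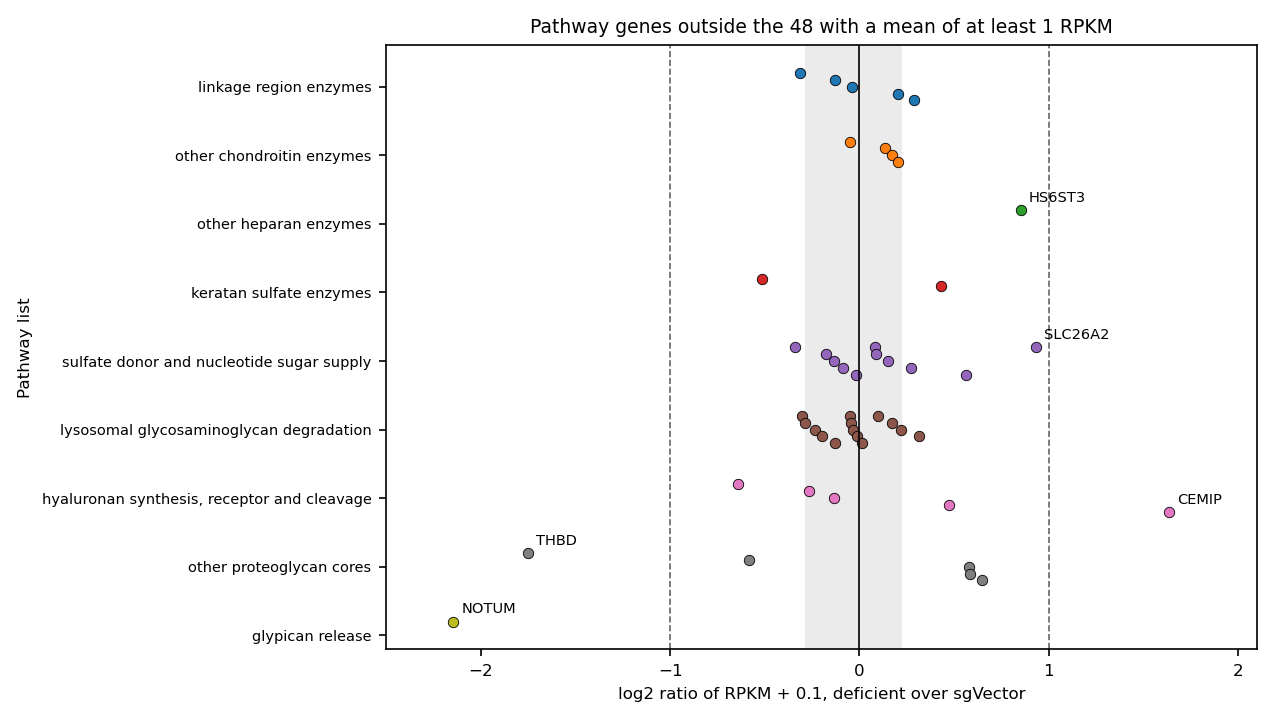
Log2 ratio of RPKM + 0.1, deficient over sgVector, for the 48 pathway genes outside the named 48 that average 1 RPKM or more, by list; the grey band holds the middle 50% of protein-coding genes and dashed lines mark 2-fold. CEMIP lies beyond 2-fold at the right, NOTUM and THBD at the left, and the linkage and lysosomal lists lie between -0.31 and 0.32.

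Base composition moved with the ratios. Split into 5 classes of equal size by GC content, protein-coding genes had a median log2 ratio of 0.14 in the class of lowest GC content and -0.20 in the highest, and 14 of the 37 genes fell in the highest class, with a median of 0.01. In the other 4 classes the listed genes had medians of 0.23, 0.59, 0.38 and 0.50. After a correction for GC content and length the same 4 genes stood past 2-fold, 32 of the 37 were above 0 against 50.1% of protein-coding genes, and the median was 0.34. These 37 include the 4 genes that averaged 1 RPKM only through the deficient library.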

How the data were processed

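RNA sequencing libraries of SUM-159 cells, 1 PD-L1L2-SE deficient and 1 sgVector, were compared. The authors deposited RPKM values with gene length and exon coordinates, and per the submitters' processing notes used Subread and featureCounts 1.6.4 with GRCh37 and hg19. The sources used here give neither the counting strand nor the annotation release. Reads of overlapping or antisense genes therefore cannot be separated. Multiplying RPKM by length recovered integer reads for 100% of entries (tolerance 1e-06). Symbols and gene types came from a gene name table and GENCODE 29, which matched 93.4% of rows, and the 41 pseudoautosomal rows of chromosome Y were dropped.

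Ratios are log2 of (RPKM + 0.1), deficient over sgVector, which understates differences of low genes. Genes averaging 1 RPKM or more were counted, with 2-fold as the threshold. Folds are ratios of read shares with 95% Clopper-Pearson intervals, which cover counting error only because each group has 1 library. With no molecular identifiers PCR copies count as separate reads, so the intervals may be too narrow even for counting error. No test was possible with 1 library per group. Members and lists were chosen with earlier results of these data known. Values are given in full for genes past 2-fold, for extremes of each role and for neighbouring family members, and NDST1 and SDC4 promoters were chosen after their values were seen. Steps were tested on simulated data. Alternatives covered pseudocounts, scalings, minimums, thresholds and a lowess correction (share 0.3) on GC content and length. Computation used Python 3.11.15 with scipy 1.17.1, pandas 2.3.3, numpy 2.4.6, matplotlib 3.10.9 and, for lowess, statsmodels 0.14.6.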

Additional observations from a re-analysis of the deposited data

How the results depend on the processing

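The count of 4 genes at least 2-fold higher was the same under every pseudocount and scaling tried and under the GC and length correction. This says little of stability, since the 4 genes stand between 0.106 and 0.866 RPKM in sgVector cells and pass the minimum only through the deficient library. The count was 0 with a minimum of 5 RPKM, which removes the 4 genes by construction. It was 10 at a threshold of 1.5-fold, against 6.92% of protein-coding genes, and 3 at 4-fold, against 0.425%. The 10 and the 3 include genes that pass the minimum only through the deficient library. The count of genes at least 2-fold lower, 0 as reported, was 2 with no minimum, which admits GPC2 and SULF2 beside the 4 higher. At 1.5-fold the count of lower genes was 1, which is VCAN, against 8.67% of protein-coding genes. The median log2 ratio stayed between 0.18 and 0.34 over the alternatives tried. With a pseudocount of 1 RPKM the log2 ratios of the 4 genes shrank, GPC6 to 1.65, CHST1 to 1.46, CHST15 to 1.13 and SULF1 to 1.10, as a larger pseudocount does for low genes, and none lost 2-fold. Of 296 log2 ratios of the 37 genes under alternatives, 6 changed sign, in 5 genes (GPC1, XYLT2, CHPF2, HS3ST3B1 and CHST7), all of them close to 0, and 27 lay outside the counting interval. Leaving out the 1 gene past the minimum with 10% or more of its exon bases shared, HSPG2, was added after seeing the data and gave 4 higher and 0 lower. No paired analysis was possible because each group holds 1 library. Depth limits GPC6 and CHST1, with 13 and 6 control reads, and GPC2 and SULF2, with 7 and 18 reads in deficient cells.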
